A study of Mus musculus with 24 samples.

Results

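Collagen genes are described here in cholangiocyte preparations, the epithelial cells that line the bile ducts, of mice with and without the dnTGFB transgene and with and without the hormone secretin. The members were all protein-coding genes whose symbol is Col, a number, a and a number, and 44 of the 49315 genes in the deposited count tables (21811 of them protein-coding) met this rule. By class they were 8 fibrillar collagens (types I, III, V and XI), 8 basement membrane collagens (types IV, XV and XVIII), 9 fibril-associated, 6 beaded-filament, 4 transmembrane, 3 other fibril-forming, 3 short-chain network and 3 anchoring or other collagens. The expression filter passed 39 of the 44 in males and 41 in females. Col2a1, Col9a1 and Col10a1, which are typical of cartilage, passed in neither sex, and Col19a1 and Col26a1 did not pass in males.

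Collagens are matrix proteins whose chains wind around each other into a helix. Fibrillar collagens assemble into the cable-like fibrils of connective tissue and scar, and in the liver they are made mainly by stellate cells and portal fibroblasts. Basement membrane collagens form the sheet on which epithelium and endothelium rest, with type IV as its network and types XV and XVIII as linkers in the surrounding zone. In injured liver, fibrillar collagen around bile ducts is the main component of biliary scar, while a basement membrane surrounds every duct and vessel.

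The groups, of 3 libraries each and in each sex, were dnTGFB mice given secretin, untreated dnTGFB mice, WT mice given secretin and untreated WT mice. The dnTGFB mice carry a dominant-negative TGF-beta receptor II, which blocks signalling by the cytokine TGF-beta, and develop a bile duct disease like primary biliary cholangitis. The labels do not name its promoter; in the widely used line it is active in T cells. Osmotic minipumps in the abdomen released secretin over 8 weeks at a daily dose of 4 µg per kg, and were replaced after 1 month. WT mice without secretin were aged 32 weeks and mice with secretin 40 weeks, so that in WT mice 8 weeks of age and secretin cannot be told apart. No source used here gives the age of untreated dnTGFB mice. As described for the series, cells of 6 to 8 mice were pooled per group and the RNA of that pool was sequenced in triplicate. On that description p-values measure only the spread between libraries of 1 pool. Libraries of some groups differed far more than those of others (below), and whether they came from 1 pool was not tested. Groups follow the titles and the series' design text, while the genotype label differed from the title in 12 of the 24 libraries: those of WT secretin carry the transgene by that label, and those of untreated dnTGFB are wild-type by it. Which label is right was not tested, since counts per gene do not separate a transgene from the endogenous Tgfbr2. Tgfbr2 stood at 4.12 to 14.7 scaled CPM per kb (CPM, counts relative to the total of a library, here also scaled between libraries and divided by gene length) in male dnTGFB libraries, against 15.3 to 16.2 in male WT libraries.

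The libraries were not alike in depth or content. Total counts ran from 15225605 to 30203330 in 11 male libraries and were 1429218 in male dnTGFB library 3, while female libraries held 6483182 to 104003184. The labelled cell type was present, with Krt19, a keratin of bile duct cells, at 9.40 to 194 scaled CPM per kb, but the summed endothelial markers exceeded the summed biliary markers in 23 of 24 libraries. Male dnTGFB library 3 held 15639 CPM of heart muscle markers and 5968 CPM of neuron markers, and in male WT library 1 mitochondrial transcripts took 42.75% of counts against 9.73% and 9.75% in libraries 2 and 3. In females, dnTGFB libraries 1 and 2 together with WT secretin libraries 2 and 3 held 51788 to 59925 CPM of heart muscle markers and 46.79 to 64.31 CPM of the Y-linked gene Ddx3y, against at most 2624 and 6.02 CPM in the other female libraries. Male libraries held 64.67 to 150.9 CPM of Ddx3y. Xist, an RNA of the inactive X chromosome, was at 12.68 to 74.69 CPM in these 4 female libraries and at 37.79 to 434.68 CPM in the other female libraries. Of the 12 libraries of each sex, 10 male and 6 female ones had their closest library, by a chi-square of counts, within their group, and female WT library 2 lay nearest to female dnTGFB secretin library 1. Results that rest on such libraries are given with and without them.

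Levels are given as scaled CPM per kb: deposited counts, scaled by TMM over the 24 libraries and divided by the deposited gene length. That length covers all annotated exons, 12426 bases for Col1a2 and 6563 for Col1a1, so the order between genes depends on the annotation. Over the 24 libraries the highest mean levels were those of Col4a1 at 41.7, Col3a1 at 35.7, Col4a2 at 33.2, Col1a1 at 30.5, Col6a1 at 22.6, Col1a2 at 21.0 and Col14a1 at 20.8, followed by Col18a1 at 16.8, Col13a1 at 14.2, Col6a2 at 11.3, Col6a3 at 5.88 and Col5a1 at 5.70. Neighbours in this order lay within each other's range over libraries: Col4a1 spanned 10.8 to 69.2, Col3a1 7.75 to 77.9 and Col4a2 11.2 to 55.4. The 10 highest members carried 77.0% to 87.8% of the summed collagen level of a library. Of the 44 members, 20 had a mean level above 1 and 9 a mean under 0.1. All collagen genes together took 0.0705% to 0.543% of a library's counts. In these bulk samples, fewer cells of a type and less RNA per cell cannot be told apart.

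The ratios between chains differed in how far they varied across libraries. Col1a1 and Col1a2, the chains of type I collagen, are on chromosomes 11 and 6, and their level ratio was 1.17 to 1.60 over all 24 libraries. Col4a1 and Col4a2, the chains of the common basement membrane network, had a ratio of 0.964 to 1.64, and Col6a1 and Col6a2, chains of beaded filaments around cells, 1.55 to 2.49. Partner chains did not always keep such a range, since Col4a5 over Col4a6 spanned 2.91 to 29.2 and Col4a3 over Col4a4 0.384 to 1.78, and Col3a1 over Col1a1, which do not pair, spanned 0.944 to 1.95. Col15a1 over Col18a1, related collagens of the basement membrane zone that do not pair, spanned 0.0223 to 4.16. Several pairs are also neighbours in the genome (GRCm38). Col4a1 (chromosome 8, 11198423 to 11312826, minus strand) and Col4a2 (chromosome 8, 11312805 to 11449287, plus strand) point away from each other and overlap by 22 bases at their starts, Col4a4 and Col4a3 point apart on chromosome 1 with 71 bases between them, and Col4a6 and Col4a5 on the X chromosome with 1308. Because no source used here gives the strand setting of the counting, reads in the overlap of Col4a1 and Col4a2 cannot be assigned to a strand; Col18a1 likewise overlaps Slc19a1, Col9a3 overlaps Tcfl5 and Col10a1 overlaps Nt5dc1.

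The start regions of 4 chains are shown because these genes carry the contrast of fibrillar with basement membrane collagens below: Col1a2 and Col3a1, which rose in male WT mice given secretin, and Col4a1 and Col4a2, which share a start region. Each window is from RefSeq (GRCm38.p6) and runs from 250 bases before to 50 bases after the gene's start, 5′ to 3′ on the gene's strand. Capitals mark, on either strand, the letters CCAAT of the CCAAT box, the letters TATAAA of the TATA box and the letters GGGCGG of the GC box.
Col1a2 (chr6:4505368-4505667, plus strand): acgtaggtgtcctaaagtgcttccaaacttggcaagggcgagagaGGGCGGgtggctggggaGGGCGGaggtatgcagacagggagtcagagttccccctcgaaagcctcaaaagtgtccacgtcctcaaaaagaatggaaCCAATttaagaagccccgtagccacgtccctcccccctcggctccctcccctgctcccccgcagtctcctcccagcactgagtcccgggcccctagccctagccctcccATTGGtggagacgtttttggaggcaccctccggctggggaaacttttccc
Col3a1 (chr1:45311288-45311587, plus strand): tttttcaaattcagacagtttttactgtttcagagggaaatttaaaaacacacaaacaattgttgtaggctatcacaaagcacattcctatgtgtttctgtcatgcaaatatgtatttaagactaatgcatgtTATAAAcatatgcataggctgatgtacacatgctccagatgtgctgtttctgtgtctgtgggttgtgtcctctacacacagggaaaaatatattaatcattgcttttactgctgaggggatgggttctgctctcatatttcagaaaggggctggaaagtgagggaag
Col4a1 (chr8:11312777-11313076, minus strand): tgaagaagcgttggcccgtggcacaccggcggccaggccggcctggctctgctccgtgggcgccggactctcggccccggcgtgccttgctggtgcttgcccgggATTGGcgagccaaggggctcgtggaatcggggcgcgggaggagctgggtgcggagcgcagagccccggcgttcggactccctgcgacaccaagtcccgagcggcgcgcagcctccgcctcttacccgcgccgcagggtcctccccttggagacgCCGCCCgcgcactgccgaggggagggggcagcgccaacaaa
Col4a2 (chr8:11312555-11312854, plus strand): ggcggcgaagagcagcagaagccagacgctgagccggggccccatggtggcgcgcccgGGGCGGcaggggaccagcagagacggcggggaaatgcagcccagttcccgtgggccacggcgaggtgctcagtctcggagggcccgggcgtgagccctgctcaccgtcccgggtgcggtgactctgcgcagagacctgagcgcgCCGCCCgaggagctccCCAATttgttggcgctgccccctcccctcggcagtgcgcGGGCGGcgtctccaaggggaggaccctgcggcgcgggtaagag
The Col4a1 and Col4a2 windows share 78 bases, read in opposite directions. Their GC content was 74.0% and 73.7%, that of Col1a2 61.0% and that of Col3a1 37.7%, against a median of 52.7% over 32851 RefSeq windows of the same length. Over those windows the CCAAT box letters were present on either strand in 37.4%, those of the TATA box in 13.6% and those of the GC box in 35.7%, and RefSeq windows were matched for 35 of the 44 members. A match is a description of letters and not of a bound site.

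The balance of fibrillar to basement membrane collagens was higher in the male WT secretin libraries than in any other male library, while the dnTGFB and WT libraries overlapped. The ratio of the summed levels was 0.981, 0.998 and 1.03 in male dnTGFB secretin libraries, 0.898, 0.924 and 0.680 in dnTGFB libraries, 1.88, 1.91 and 1.97 in WT secretin libraries, and 0.682, 0.458 and 0.458 in WT libraries. Fibrillar collagens thus outweighed basement membrane collagens in all 3 male WT secretin libraries and in none of the 3 WT libraries. Group means were 1.00 ± 0.0246 in dnTGFB secretin, 0.834 ± 0.134 in dnTGFB, 1.92 ± 0.0414 in WT secretin and 0.532 ± 0.129 in WT (SD, n = 3 each). The ratio is taken within a library, so the scaling between libraries does not enter it. No test was made on this score, since its members were chosen with results known.

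Both classes contributed unequally to that balance. The fibrillar sum was 64.2 to 64.9 in male dnTGFB secretin, 20.1 to 106 in dnTGFB, 218 to 220 in WT secretin and 36.2 to 69.6 in WT libraries. The basement membrane sum was 63.1 to 65.7 in dnTGFB secretin, 29.6 to 115 in dnTGFB, 111 to 117 in WT secretin and 79.0 to 102 in WT. The lowest values of both sums in dnTGFB are those of library 3, which holds heart muscle and neuron transcripts; that library was the lowest of the 12 male libraries for each of the 12 most abundant members. Without Col1a1, Col1a2 and Col3a1 the mean ratio was 0.143 in dnTGFB secretin, 0.130 in dnTGFB, 0.179 in WT secretin and 0.0849 in WT, so that the groups kept the order WT secretin, dnTGFB secretin, dnTGFB and WT.

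**Figure D1:**
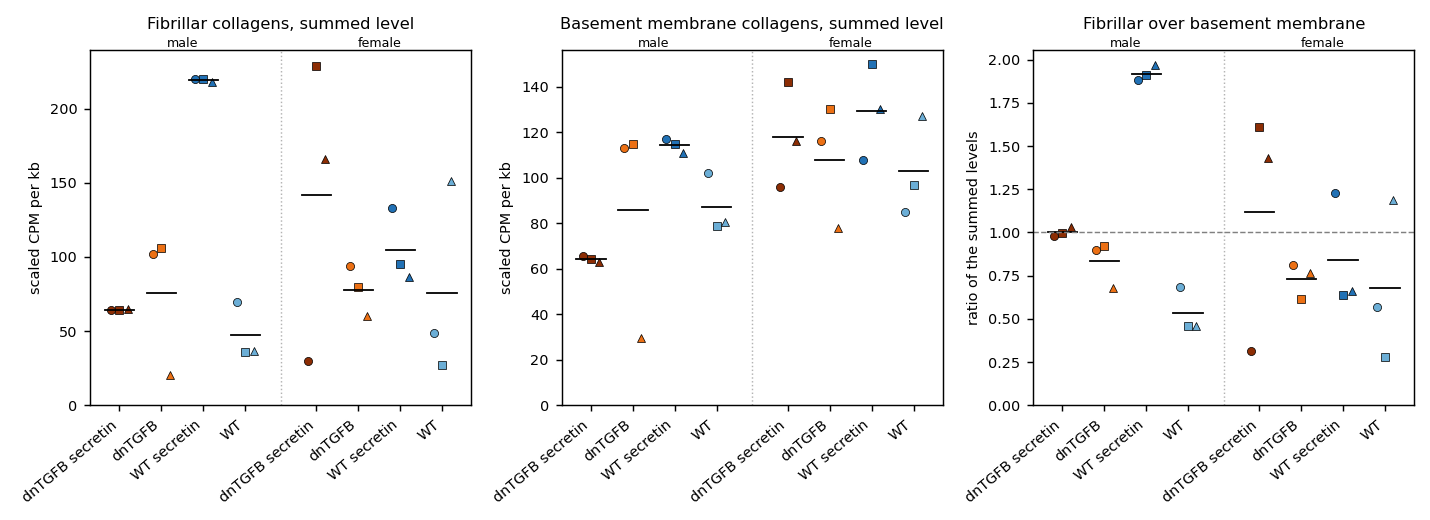
Summed level of the 8 fibrillar (left) and the 8 basement membrane collagens (middle), in scaled CPM per kb, and their ratio (right), in each library by group; circles, squares and triangles are libraries 1, 2 and 3, the line is the group mean and the dashed line a ratio of 1. Male WT secretin libraries lie at ratios of 1.88 to 1.97 and male WT libraries at 0.458 to 0.682, while female libraries of a group are spread, from 0.312 to 1.61 in dnTGFB secretin.

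In male WT mice, the fibrillar chains Col1a1, Col1a2, Col3a1 and Col5a1, the beaded-filament chains Col6a1 and Col6a2 and the basement membrane chains Col4a5, Col4a6 and Col15a1 were higher with secretin than without, while the main basement membrane chains Col4a1 and Col4a2 did not pass the test. Of the 39 members tested, 12 rose and 0 fell, with 3.55% of all genes tested called higher and 2.67% lower, and the median log2 fold change was 0.88 over the members and 0.00 over all genes (edgeR quasi-likelihood test, Benjamini-Hochberg adjusted p under 0.05, n = 3 libraries a group). Of the fibrillar collagens, 4 of 8 rose (median 1.52), and of the basement membrane collagens, 3 of 8 (median 0.66). This comparison answers how secretin-treated and untreated WT preparations differ, with age included.

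Col1a1, the more abundant chain of type I collagen, stood at 74.2, 74.2 and 74.7 in male WT secretin libraries, against 18.8, 10.5 and 10.1 in WT libraries. The groups did not overlap, and the log2 fold change was 2.47 ± 0.50 (SE, edgeR adjusted p = 0.0162). Its partner Col1a2 stood at 47.7, 48.3 and 46.9 in WT secretin, against 14.7, 7.11 and 7.33 in WT, a log2 fold change of 2.27 ± 0.51 (edgeR adjusted p = 0.0255). Type I collagen RNA was thus high in every male WT secretin library, and male WT library 1 was the highest of the male WT libraries for both chains. Col3a1, the type III chain that joins type I in the fibrils of soft tissue, had 76.7, 77.9 and 76.5 in WT secretin, against 25.8, 12.6 and 13.1 in WT (2.14 ± 0.49, edgeR adjusted p = 0.0277). Col5a1, a type V chain that starts fibrils and limits their width, had 8.91, 8.30 and 8.83 in WT secretin, against 4.10, 1.77 and 2.04 in WT (1.69 ± 0.45, edgeR adjusted p = 0.0491). Col5a2 and Col5a3, the other type V chains, had log2 fold changes of 1.35 and 1.28 that did not pass the test, and the cartilage chains Col11a1 and Col11a2 were at or under 0.828 in every male library.

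The basement membrane class split between its chains. Col4a1 stood at 44.0, 42.9 and 38.3 in male WT secretin libraries, against 41.4, 36.5 and 36.7 in WT libraries, and Col4a2 at 32.5, 31.6 and 32.2 against 33.6, 28.3 and 29.6. The groups overlap for both genes, whose log2 fold changes were 0.10 ± 0.36 (edgeR adjusted p = 0.918) and 0.05 ± 0.30 (edgeR adjusted p = 0.957). Col4a5, a chain of the specialised networks of kidney, lung and skin, had 4.74, 5.08 and 5.13 in WT secretin, against 1.58, 1.56 and 1.68 in WT (1.61 ± 0.13, edgeR adjusted p = 1.94e-04). Its neighbour Col4a6 had 1.63, 1.45 and 1.62 in WT secretin, against 0.528, 0.515 and 0.369 in WT (1.71 ± 0.30, edgeR adjusted p = 0.00813). Every male WT secretin library thus exceeded every male WT library for these X-linked chains, which were low beside Col4a1. Col15a1, a linker of the basement membrane zone in muscle and vessels, had 7.48, 7.01 and 6.98 in WT secretin, against 1.77, 1.66 and 1.32 in WT (2.15 ± 0.20, edgeR adjusted p = 3.02e-04). Col18a1, whose end fragment is endostatin and which hepatocytes express, had 25.1, 25.6 and 25.3 against 21.9, 9.14 and 9.61, and its log2 fold change of 0.88 did not pass the test.

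Members of other classes rose as well, with none of the 4 transmembrane collagens called. Col6a1 had 44.4, 43.3 and 46.4 in male WT secretin, against 14.8, 8.95 and 8.34 in WT, and Col6a2 had 21.4, 22.3 and 21.9 against 6.01, 4.90 and 5.38. Their log2 fold changes were 2.04 ± 0.40 and 1.98 ± 0.36 (edgeR adjusted p = 0.0146 and 0.0102), while Col6a3 at 1.56 did not pass. Col12a1, which coats fibrils, had 0.794, 0.695 and 0.666 in WT secretin, against 0.303, 0.124 and 0.165 in WT (1.84 ± 0.33, edgeR adjusted p = 0.0102). Col8a2, a short-chain network collagen, had 1.87, 1.72 and 2.17 against 0.373, 0.411 and 0.353 (2.31 ± 0.50, edgeR adjusted p = 0.0207). Col24a1, a fibril-forming collagen of developing bone, had the largest fold of the members called, 2.98 ± 0.45 on the log2 scale (edgeR adjusted p = 0.00447), from 144, 107 and 106 counts in WT secretin, against 27, 8 and 12 in WT. Col13a1, a transmembrane collagen of cell adhesion sites, lay the other way at 12.1, 11.3 and 12.2 in WT secretin, against 21.3, 26.6 and 26.9 in WT; the groups did not overlap, but the log2 fold change of -1.10 did not pass the test. Col14a1, the other abundant fibril-coating collagen, overlapped between the groups, at 24.7, 23.2 and 26.2 in WT secretin, against 26.5, 13.6 and 14.4 in WT.

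Across the members, 23 of 39 were higher and 1 lower in every male WT secretin library than in every WT library, against 23.4% and 20.0% of all genes tested. The calls of Col15a1, Col24a1, Col4a5 and Col4a6 held without any 1 male library. In the same 12 fits the call of Col1a1 was lost in 5 and those of Col1a2, Col3a1 and Col5a1 in 8 each. Calls of Col8a2, Col6a1, Col6a2 and Col12a1 were lost in 6, 5, 2 and 2. Log2 fold changes stayed between 2.32 and 2.82 for Col1a1 and between 1.47 and 2.16 for Col5a1. The number of members called ran from 4 to 22 when 1 library was left out. Without male WT library 1 and male dnTGFB library 3, 27 members were higher and 1, Col13a1, was lower, with 19.9% and 20.6% of all genes called, and the log2 fold change was 2.82 for Col1a1 and 0.16 for Col4a1.

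**Figure D2:**
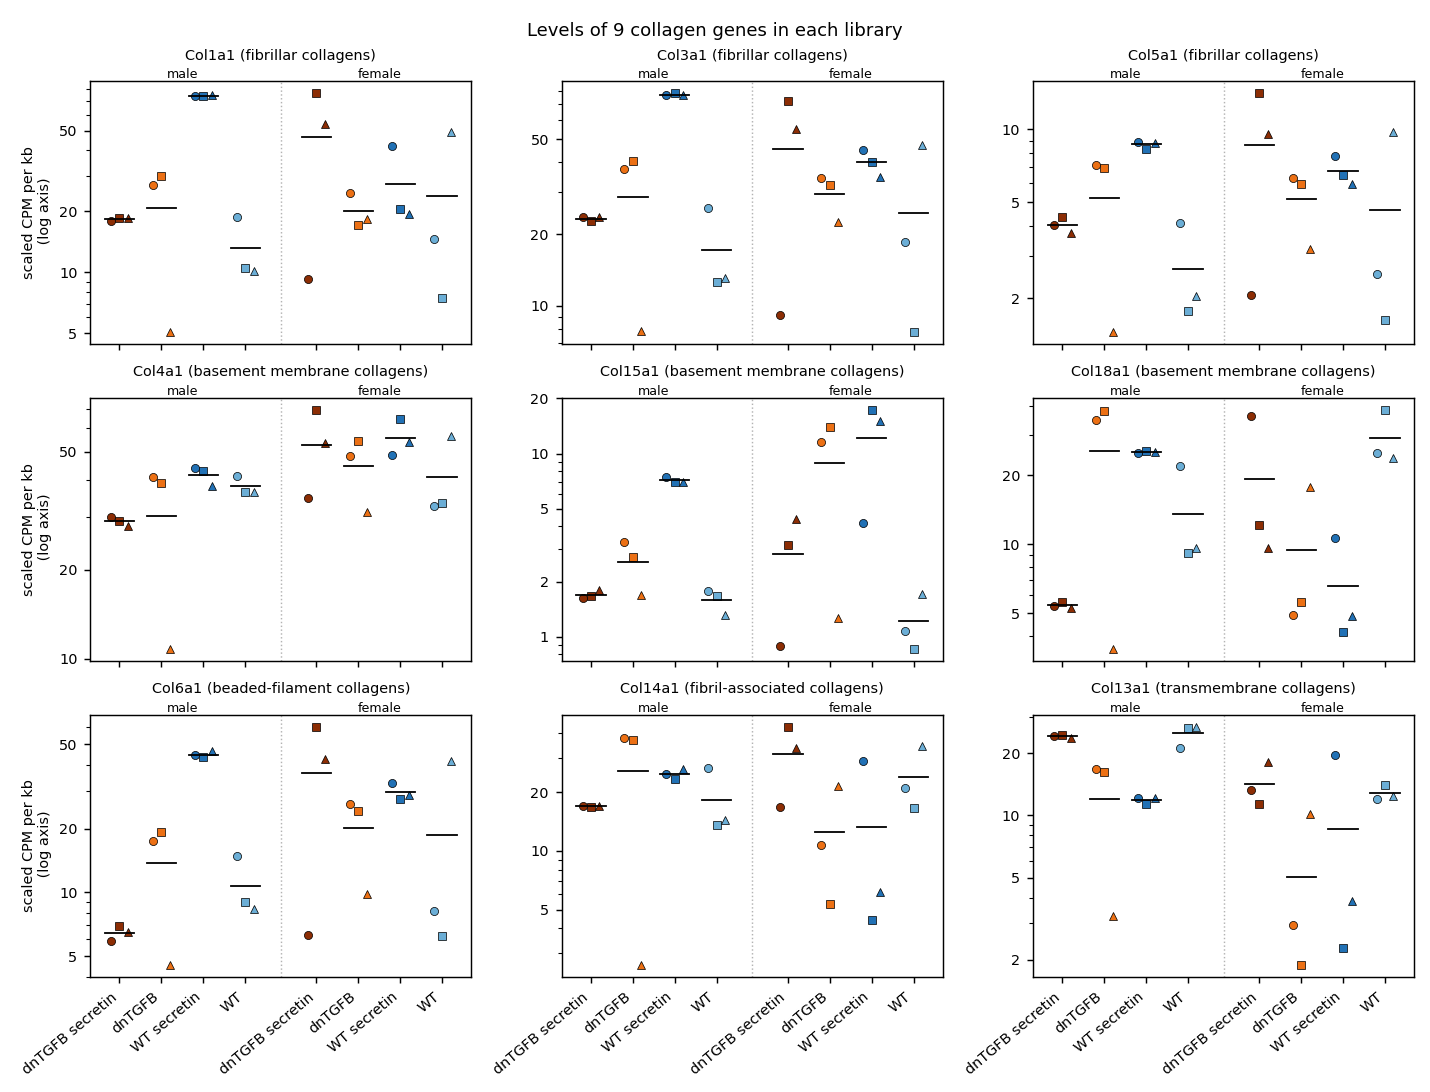
Levels of 9 collagen genes in scaled CPM per kb on a log axis, by library; circles, squares and triangles are libraries 1, 2 and 3, and the line is the group mean. Col1a1, Col3a1 and Col6a1 are highest among males in the 3 WT secretin libraries, Col4a1 spans 28.0 to 44.0 in the male libraries other than dnTGFB library 3 at 10.8, and the female libraries of a group are far apart for Col15a1 and Col18a1.

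Some genes of collagen processing also rose in male WT mice given secretin. Of 18 genes of chain modification and folding, 3 rose and 0 fell: Plod2, a lysyl hydroxylase that prepares cross-links (1.15 ± 0.24, edgeR adjusted p = 0.0191), P3h4 of the prolyl 3-hydroxylase complex (0.98 ± 0.20, edgeR adjusted p = 0.0188) and Fkbp10, a folding isomerase (1.04 ± 0.26, edgeR adjusted p = 0.0383). The collagen chaperone gene Serpinh1 stood at 162 to 172 in WT secretin and at 90.4 to 93.3 in WT, without a call (0.84 ± 0.30, edgeR adjusted p = 0.133). Of 10 genes of secretion and trimming 2 rose, Bmp1, which cuts off the end propeptide (1.51), and its enhancer Pcolce2 (1.12), and of 6 cross-linking genes 1 rose, Loxl1 (1.96). Lox, the founding cross-linking enzyme gene, stood at 5.04 to 5.46 in WT secretin and at 1.58 to 3.20 in WT, and its log2 fold change of 1.29 did not pass. Of 10 breakdown genes tested 4 rose and 0 fell, among them the gelatinase genes Mmp9 (2.83 ± 0.42, edgeR adjusted p = 0.00369) and Mmp2 (2.49 ± 0.39, edgeR adjusted p = 0.00527) and the inhibitor gene Timp2 (0.90). Of 12 fibril-binding genes 3 rose, Fbn1 (1.64), Aspn (1.53) and Ogn (1.30), while Dcn and Lum, abundant proteoglycan genes of fibrils, had 0.37 and 1.28 without a call. Of 15 non-collagen basement membrane genes 2 rose, the laminin genes Lamc3 (1.53) and Lamb1 (0.59), and Hspg2 and Lama5 had -0.09 and 0.20. Of 10 collagen receptors none rose and 1, the platelet receptor gene Gp6, fell (-4.40).

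Markers of other cell types moved with these collagens, and their part in the result was not tested. The stellate cell and fibroblast markers summed to 1638 to 1717 CPM in male WT secretin libraries, against 789 to 828 CPM in WT, and 4 of 14 rose: Clec3b, Fbln1, Gsn and Pdgfra. The levels of the stellate cell markers Lrat and Reln were 2.74 to 3.04 and 2.48 to 2.70 in WT secretin, against 5.62 to 7.60 and 2.89 to 3.27 in WT, with no call. Mesothelial markers, of the cells that cover the liver surface, summed to 135 to 146 CPM in WT secretin, against 33.0 to 63.7 CPM in WT, and 5 of 6 rose. Hepatocyte markers summed to 13106 to 13758 CPM in WT secretin, against 2898 to 8124 CPM in WT, and none of 10 was called, nor was any of 11 endothelial markers. The smooth muscle markers summed to 528 to 568 CPM in WT secretin, against 289 to 513 CPM in WT, with 1 of 7 called, Rgs5, which was lower. Macrophage markers summed to 712 to 737 CPM in WT secretin, against 235 to 513 CPM in WT, with 2 of 8 higher, and pancreatic acinar markers to 182 to 189 CPM against 44.2 to 83.5 CPM, with 7 of 8 higher. Xist, an RNA of the inactive X chromosome of female cells, stood at 33.98 to 42.43 CPM in the male WT secretin libraries, against 0.63 to 1.64 CPM in male WT and at most 5.74 CPM in any other male library. None of these stellate cell, mesothelial or smooth muscle markers was at 0 in a male library.

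In untreated male mice the transgene was set against WT, and few collagens passed the test. Of 39 members tested, 2 rose and 0 fell, with 8.55% of all genes called higher and 8.46% lower, and the median log2 fold change was 0.37 over the members and 0.01 over all genes. Col15a1 had 3.31, 2.71 and 1.69 in male dnTGFB libraries, against 1.77, 1.66 and 1.32 in WT libraries, a log2 fold change of 0.77 ± 0.20 (edgeR adjusted p = 0.0235). Col5a3, the type V chain with the narrowest distribution, had 2.13, 3.49 and 0.865 in dnTGFB, against 1.28, 0.892 and 0.693 in WT (1.27 ± 0.38, edgeR adjusted p = 0.0406). In both genes dnTGFB library 3 was the lowest of its group and overlapped the WT libraries. With 1 male library left out, the call of Col15a1 was lost in 3 of 12 fits and that of Col5a3 in 10. Col12a1 had 0.419, 0.448 and 0.316 in dnTGFB, against 0.303, 0.124 and 0.165 in WT, and did not pass (1.06 ± 0.34, edgeR adjusted p = 0.0561).

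The abundant fibrillar chains split within the male dnTGFB group. Col1a1 stood at 27.1, 30.0 and 5.06 in dnTGFB, against 18.8, 10.5 and 10.1 in WT, and Col3a1 at 37.5, 40.6 and 7.80 against 25.8, 12.6 and 13.1. Libraries 1 and 2 lay above and library 3 below all WT libraries, and neither gene passed (0.69 and 0.76 on the log2 scale, edgeR adjusted p = 0.325 and 0.277). Col4a1 stood at 41.0, 39.3 and 10.8 in dnTGFB, against 41.4, 36.5 and 36.7 in WT. Without male WT library 1 and male dnTGFB library 3, which leaves 2 libraries a group, 21 members were higher and 3 lower, with 22.3% and 25.1% of all genes called. In that setting 6 of 8 fibrillar collagens were higher (median 1.50), among them Col1a1 (1.48), Col3a1 (1.61) and Col5a1 (1.89), while the basement membrane class had 4 higher and 1 lower (median 0.07). Col18a1, at 34.9 and 38.2 in dnTGFB libraries 1 and 2 against 9.14 and 9.61 in WT libraries 2 and 3, had a log2 fold change of 1.97 there. The hepatocyte markers summed to 10894 and 10265 CPM in those dnTGFB libraries, against 2962 and 2898 CPM in those WT libraries, mitochondrial transcripts took 55.07% and 55.03% of counts against 9.73% and 9.75%, and 12 of 14 stellate cell and fibroblast markers were higher in that setting. Their part in these values was not tested. The scaling bears on this comparison: with library totals in place of TMM the median of all genes was -0.44 and 0 members were higher and 7 lower, with 5.38% and 22.4% of all genes called. Biliary markers fell, 7 of 10, with sums of 473 to 680 CPM in dnTGFB, against 1305 to 3349 CPM in WT.

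Of the genes of collagen processing, none of 18 modification and folding genes, 10 secretion and trimming genes, 6 cross-linking genes and 10 breakdown genes tested was called in male dnTGFB against WT, where 5, 3, 0 and 2 had an unadjusted p under 0.05. The share of all genes under that unadjusted threshold was not counted. The fibril-binding gene Ogn rose (1.08). Of 15 non-collagen basement membrane genes 4 fell, among them the laminin genes Lama4, Lamb3 and Lamc3, which fell by 1.19, 0.76 and 1.04 on the log2 scale, and the collagen receptor gene Ddr1 fell by 0.88 and Gp6 by 2.77.

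In male dnTGFB mice, Col5a3, Col12a1, Col15a1, Col17a1, Col18a1 and Col22a1 were lower and Col4a5 and Col27a1 higher with secretin than without, while Col1a1, Col1a2, Col3a1, Col4a1 and Col4a2 did not pass the test. The share of members that fell was near that of all genes. Of 39 members tested, 2 rose and 6 fell, with 10.1% of all genes called higher and 12.4% lower, and medians of -0.34 over the members and -0.05 over all genes. This comparison shares the dnTGFB libraries with the preceding one. Col5a3 had the smallest adjusted p of the members that fell, with levels of 0.476, 0.677 and 0.586 in dnTGFB secretin, against 2.13, 3.49 and 0.865 in dnTGFB (-2.01 ± 0.38, edgeR adjusted p = 0.00746). Col12a1 had 0.149, 0.153 and 0.0886 in dnTGFB secretin, against 0.419, 0.448 and 0.316 in dnTGFB (-1.68 ± 0.35, edgeR adjusted p = 0.0107). Col18a1 had 5.40, 5.61 and 5.29 in dnTGFB secretin, against 34.9, 38.2 and 3.51 in dnTGFB (-2.28 ± 0.63, edgeR adjusted p = 0.0282). Libraries 1 and 2 of dnTGFB were far above, and library 3 below, every dnTGFB secretin library for Col18a1. Col15a1 had 1.63, 1.66 and 1.81 against 3.31, 2.71 and 1.69 (-0.68 ± 0.20, edgeR adjusted p = 0.0320), and with library totals in place of TMM its log2 fold change was 0.19.

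Col27a1 and Col4a5 rose in male dnTGFB mice given secretin. Col27a1, a fibril-forming collagen of cartilage, had 6.00, 5.81 and 6.00 in dnTGFB secretin, against 2.92, 2.57 and 0.945 in dnTGFB (1.38 ± 0.27, edgeR adjusted p = 0.00880). Col4a5 had 2.11, 2.13 and 2.07 in dnTGFB secretin, against 1.24, 1.60 and 1.35 in dnTGFB (0.54 ± 0.14, edgeR adjusted p = 0.0215). Neither pair of groups overlapped, and the calls of Col27a1 and Col5a3 held without any 1 male library. In the same 12 fits the calls of Col22a1 and Col15a1 were lost in 10 and 9. Those of Col17a1 and Col18a1 were lost in 5 each, that of Col4a5 in 3 and that of Col12a1 in 1. Col17a1, a transmembrane collagen of squamous epithelium, and Col22a1, at or under 0.193, also fell (-2.43 and -2.39). Col17a1 had 18, 24 and 21 counts in dnTGFB secretin, against 43, 50 and 1 in dnTGFB. Col22a1 had 3, 6 and 12 counts, against 3, 20 and 3. For both genes the groups overlapped or dnTGFB library 3 lay below the secretin libraries. The squamous markers summed to 14.5 to 26.5 CPM in dnTGFB secretin, against 33.6 to 265 CPM in dnTGFB, and their part in the value of Col17a1 was not tested.

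The abundant chains stood between the libraries of the male dnTGFB group. Col1a1 had 18.0, 18.5 and 18.5 in dnTGFB secretin, against 27.1, 30.0 and 5.06 in dnTGFB, and Col3a1 had 23.5, 22.6 and 23.6 against 37.5, 40.6 and 7.80. Col4a1 had 30.0, 29.2 and 28.0 in dnTGFB secretin, against 41.0, 39.3 and 10.8 in dnTGFB. None of the 3 passed, with log2 fold changes of -0.22, -0.34 and -0.11 (edgeR adjusted p = 0.762, 0.628 and 0.859). Without male WT library 1 and male dnTGFB library 3, 4 members were higher and 23 lower, with 23.1% and 23.5% of all genes called, and 7 of 8 fibrillar collagens were lower (median -0.72). With library totals in place of TMM the median of all genes was 0.75, and 13 members were higher and 3 lower, with 35.6% and 4.46% of all genes called. Mitochondrial transcripts took 5.31% to 5.66% of counts in dnTGFB secretin, against 55.07%, 55.03% and 11.44% in dnTGFB. Endothelial markers summed to 6823 to 6910 CPM in dnTGFB secretin, against 1169 to 3153 CPM in dnTGFB, with none of 11 called, and macrophage markers to 732 to 763 CPM against 116 to 141 CPM, with 7 of 8 higher. The part of these values in the result was not tested. The biliary markers rose, 9 of 10, with sums of 5673 to 5758 CPM in dnTGFB secretin, against 473 to 680 CPM in dnTGFB, and 5 of 10 hepatocyte and 4 of 7 smooth muscle markers fell. Among laminin genes Lamc3 (1.16) and Lamb1 (0.79) rose, and the cross-linking gene Loxl4 (-1.60) and the proteoglycan genes Ogn (-2.15) and Aspn (-1.86) fell.

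**Figure D3:**
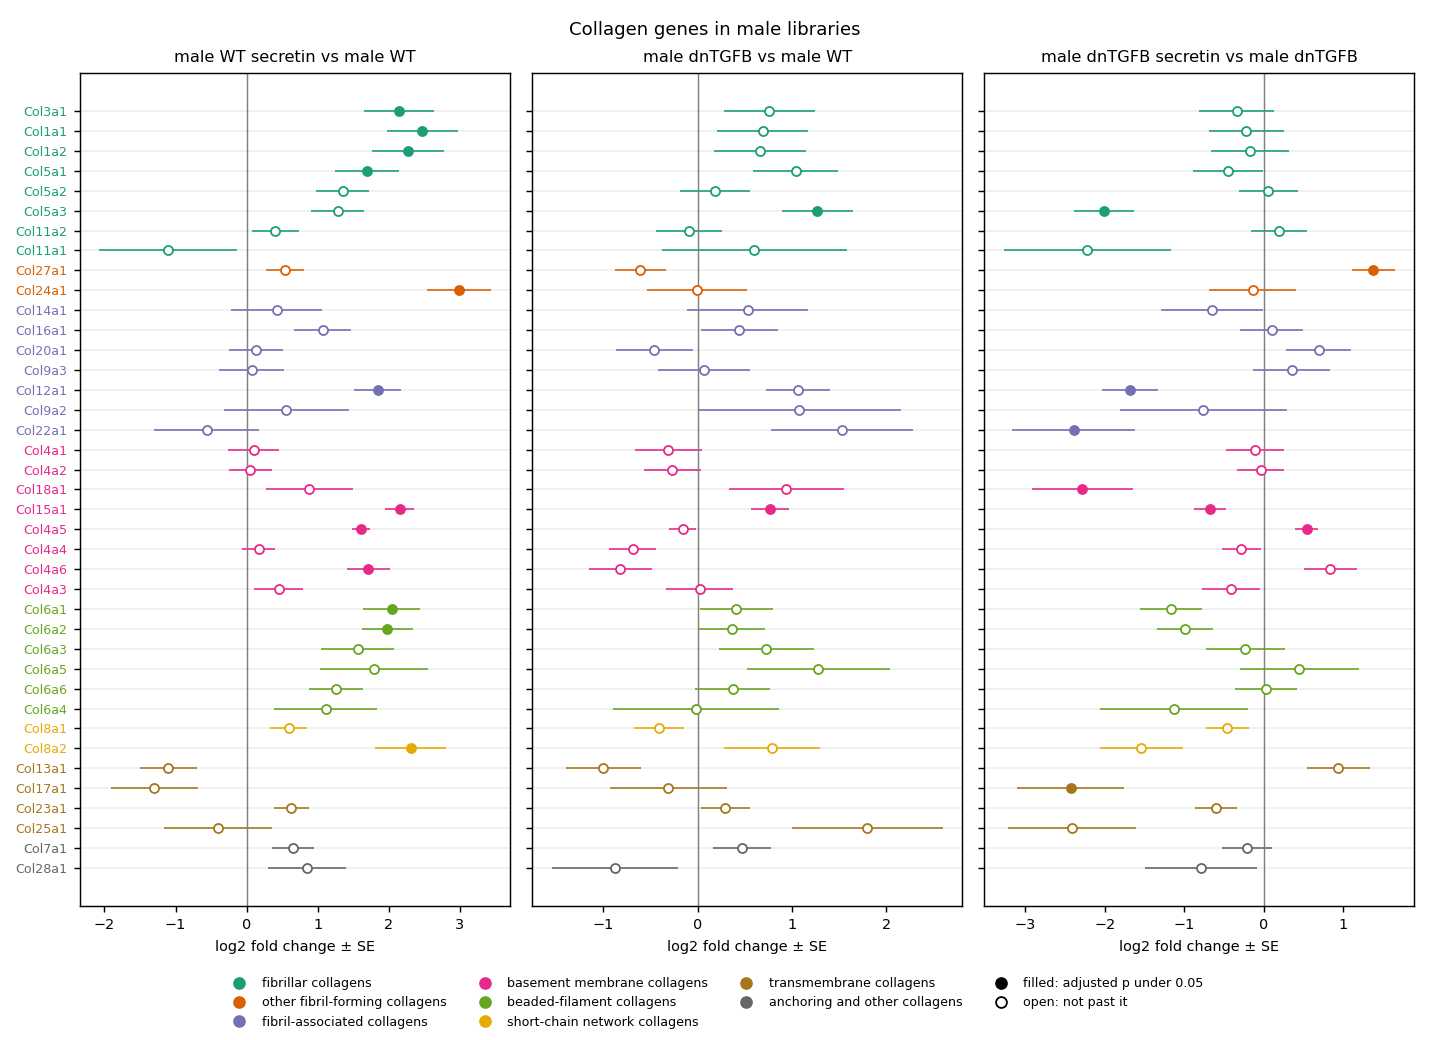
Log2 fold change ± SE of the 39 collagen genes tested in males, coloured by class, in WT secretin against WT (left), dnTGFB against WT (middle) and dnTGFB secretin against dnTGFB (right); filled points passed an adjusted p of 0.05. On the left 12 points are filled, all above 0, while in the middle 2 and on the right 8 are filled.

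The secretin difference itself differed between the male genotypes for many collagens. In the interaction, the log2 difference under secretin in dnTGFB mice minus that in WT mice, 1 of 39 members was called higher and 14 lower, with 8.10% and 7.51% of all genes called, and the medians were -1.29 over the members and -0.07 over all genes. Of the fibrillar collagens 5 of 8 were lower: Col5a3 (-3.29 ± 0.53, edgeR adjusted p = 0.00408), Col1a1 (-2.70 ± 0.68, edgeR adjusted p = 0.0259), Col3a1 (-2.48), Col1a2 (-2.44) and Col5a1 (-2.14). Of the basement membrane collagens Col15a1 (-2.84 ± 0.28, edgeR adjusted p = 3.71e-04), Col18a1 (-3.15) and Col4a5 (-1.07) were lower. Col12a1 (-3.52 ± 0.48, edgeR adjusted p = 0.00176), Col8a2 (-3.85), Col6a1 (-3.19), Col24a1 (-3.12), Col6a2 (-2.97) and Col23a1 (-1.22) were also lower, and Col13a1 (2.04 ± 0.56, edgeR adjusted p = 0.0356) was higher. The interactions of Col15a1, Col12a1, Col5a3, Col6a1, Col6a2, Col4a5 and Col8a2 were called without any 1 male library. Those of Col1a2, Col3a1, Col5a1 and Col18a1 were lost in 10 of these 12 fits. That of Col23a1 was lost in 9, those of Col1a1 and Col13a1 in 8 and that of Col24a1 in 2. Without male WT library 1 and male dnTGFB library 3, 2 members were higher and 27 lower, with 25.1% and 23.8% of all genes called. Markers moved likewise: 5 of 14 stellate cell and fibroblast, 5 of 6 mesothelial and 3 of 10 hepatocyte markers were lower, and their part was not tested.

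In females no collagen passed the test in any comparison of 2 groups, and no gene at all was called (0% of 19882 genes tested in each direction). Of 41 members tested, 7 had an unadjusted p under 0.05 in dnTGFB against WT, 8 in WT secretin against WT and 4 in dnTGFB secretin against dnTGFB. The share of all genes under that unadjusted threshold was not counted, so these counts cannot be set against it. In the same order, DESeq2 called 2, 7 and 1 of the members. DESeq2 called 3.39% of all genes higher and 0.764% lower in the first, 8.76% and 4.71% in the second and 0.569% and 1.66% in the last of these comparisons. The member medians were 0.14, 0.53 and 0.46, against 0.10, 0.11 and -0.02 over all genes. Col1a1 stood at 9.22, 76.5 and 54.2 in female dnTGFB secretin, 24.6, 17.1 and 18.4 in dnTGFB, 41.9, 20.6 and 19.5 in WT secretin and 14.6, 7.44 and 49.4 in WT libraries. The range from 9.22 to 76.5 within dnTGFB secretin and that from 7.44 to 49.4 within WT were thus wider than any gap between group means. These means lay between 20.0 in dnTGFB and 46.7 in dnTGFB secretin. Col4a1 was more even, at 34.9, 69.2 and 53.6 in dnTGFB secretin, 48.4, 54.4 and 31.2 in dnTGFB, 48.8, 64.6 and 54.1 in WT secretin and 32.9, 33.5 and 56.7 in WT. The ratio of fibrillar to basement membrane collagens was 0.312, 1.61 and 1.43 in dnTGFB secretin, 0.811, 0.612 and 0.768 in dnTGFB, 1.23, 0.636 and 0.664 in WT secretin and 0.571, 0.280 and 1.19 in WT, and all groups overlapped. Without female WT secretin library 1, 5 members were higher and 4 lower in WT secretin against WT, with 16.9% and 8.76% of all genes called, and the 2 libraries left are rich in heart muscle markers.

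Several members varied between the female libraries together with markers of other tissues. Col15a1 stood at 17.3 and 15.1 in WT secretin libraries 2 and 3 and at 11.5 and 14.0 in dnTGFB libraries 1 and 2, which are the 4 rich in heart muscle markers, and at 0.860 to 4.38 in the other 8 female libraries. Col5a3 stood at 6.33, 6.35, 5.17 and 6.64 in these 4 libraries, and Col4a5 at 6.32, 6.10, 5.05 and 5.81. In contrast, Col13a1 and Col14a1 were low there, at 1.88 to 3.83 and 4.44 to 10.7. Col17a1 was at 5.51 in WT library 2 and 6.42 in dnTGFB secretin library 1, where squamous markers summed to 3339 and 3314 CPM, and at or under 1.55 in every other library of either sex. Among female libraries Col18a1 was highest in the same pair, at 38.5 and 36.2, where hepatocyte markers summed to 18613 and 18045 CPM, and lowest in the heart-rich libraries at 4.15 to 5.61, where they summed to 309 to 1291 CPM. Without a marker sum set beside it, Col12a1 was at 3.32 and 1.97 in dnTGFB secretin libraries 2 and 3, 1.94 in WT library 3 and 1.42 in WT secretin library 1, and at or under 0.405 in the other female libraries. These values are descriptions over 24 libraries of unequal depth, and the part of other tissues in them was not tested.

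**Figure D4:**
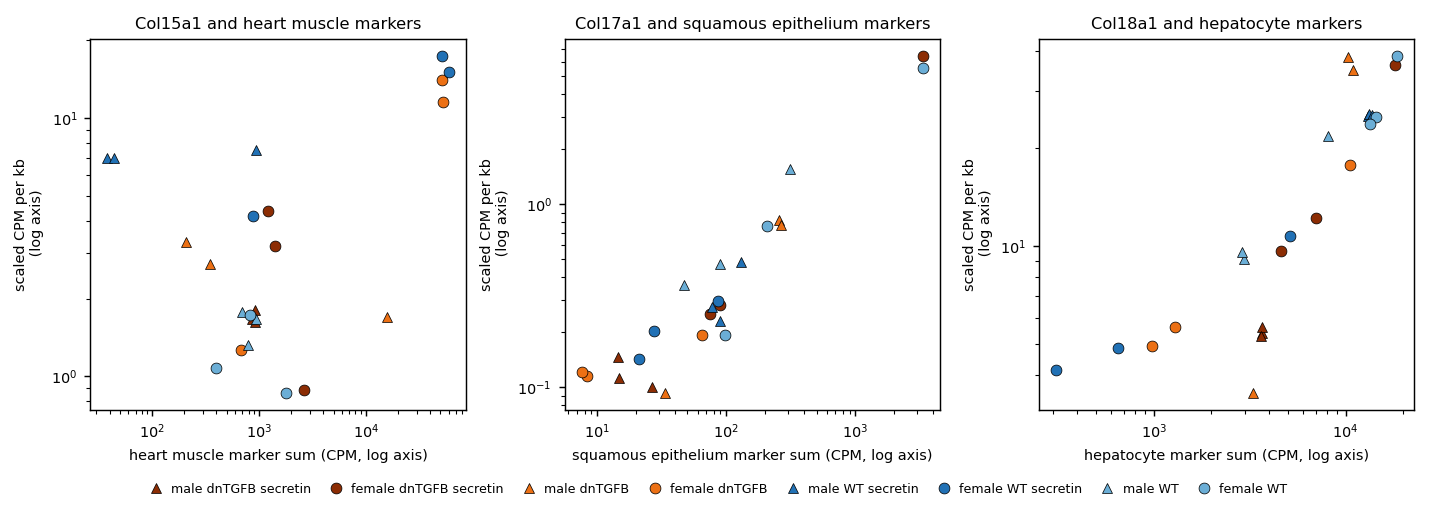
Level of Col15a1 (left), Col17a1 (middle) and Col18a1 (right), in scaled CPM per kb, against the summed heart muscle, squamous epithelium and hepatocyte markers in CPM of the library, all on log axes; each point is a library, triangles male and circles female. Col15a1 is highest, at 11.5 to 17.3, in the 4 libraries with at least 51788 CPM of heart muscle markers, and Col17a1 in the pair with 3314 and 3339 CPM of squamous markers.

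In the female interaction, 2 of 41 members were higher, Col17a1 (7.35 ± 2.02) and Col18a1 (3.19 ± 0.92), and 3 lower, Col15a1 (-4.96 ± 1.23), Col5a3 (-4.64 ± 1.19) and Col4a5 (-2.41 ± 0.66), with 4.03% and 13.9% of all genes called and edgeR adjusted p from 0.0408 to 0.0444. The dnTGFB and the WT secretin groups, both subtracted in this contrast, are those that hold the 4 heart-rich libraries. Without these 4 libraries, which leaves 1 library in each of those groups, 0 members and 0% of all genes were called, and the values were 6.45 for Col17a1, 1.61 for Col18a1, -0.53 for Col15a1, 0.30 for Col5a3 and -1.0 for Col4a5. All 5 calls were also lost in 10 of the 12 fits that leave out 1 female library, those without any 1 WT or dnTGFB secretin library included. In those 10 fits no gene at all was called, for instance 0 of 21434 without WT library 1. Without WT secretin library 1, 3278 genes were higher and 4893 lower of 21210, and without dnTGFB library 3, 2154 and 4292 of 20769. Without female WT library 2, WT secretin library 1 and dnTGFB secretin library 1, 11 members were higher and 5 lower, with 16.0% and 24.1% of all genes called.

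Differences between the sexes were tested over all 24 libraries as the female minus the male log2 fold change. Sex follows the titles. The 4 heart-rich libraries, counted as female, held 46.79 to 64.31 CPM of Y-linked Ddx3y, against 64.67 to 150.9 CPM in male libraries. Whether they are female was not tested. For dnTGFB against WT, 1 of 41 members was called, Col4a4, a chain of the specialised basement membrane network (1.23 ± 0.36, edgeR adjusted p = 0.0421), with 2.42% of all genes called higher and 4.45% lower. Col4a4 stood at 0.913, 1.03 and 0.753 in female dnTGFB, against 0.697, 0.608 and 0.567 in female WT, and at 0.353, 0.627 and 0.605 in male dnTGFB, against 0.980, 0.882 and 0.696 in male WT. Neither pair of groups overlapped, and they lay in opposite directions. For WT secretin against WT 0 members and 0% of all genes were called, where 4 members had an unadjusted p under 0.05 and DESeq2 called 2 beside 6.13% of all genes higher and 3.46% lower. The share of all genes with an unadjusted p under 0.05 was not counted. Col1a1 differed by -2.30 ± 0.96 (edgeR adjusted p = 0.168). For dnTGFB secretin against dnTGFB 3 members were higher, Col17a1 (6.36 ± 1.64), Col12a1 (4.63 ± 1.38) and Col18a1 (3.28 ± 0.96), with edgeR adjusted p of 0.0283, 0.0469 and 0.0432 and 5.32% and 2.44% of all genes called. Without the 4 heart-rich libraries none of these 4 genes was called, with 0.0348% of all genes higher and 0% lower for dnTGFB against WT, and 0.0478% and 0.739% for dnTGFB secretin against dnTGFB.

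Of the other members, Col5a2 had a mean level of 5.29 over the 24 libraries, Col27a1 3.50, Col16a1 3.50, Col8a1 2.40, Col6a5 2.37, Col5a3 2.07 and Col20a1 0.915. Col6a5, a chain of the alpha-3-like group of type VI, varied within male WT, at 3.29, 0.510 and 0.448, and stood at 4.83 to 5.11 in male WT secretin and 4.68 to 4.81 in male dnTGFB secretin. Col25a1, a transmembrane collagen of neurons, and Col9a2 were highest in male dnTGFB library 3, at 0.579 and 0.865, which rest on 14 and 5 counts in that library of 1429218 counts. Col7a1, the anchoring fibril collagen of skin, was highest in female dnTGFB secretin library 1 at 0.755, which holds squamous markers. Col6a4, Col9a1, Col10a1, Col11a1, Col19a1, Col22a1, Col26a1 and Col2a1 had mean levels of 0.0169 to 0.0557.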

How the data were processed

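RNA of 24 cholangiocyte preparations was sequenced after poly(A) selection, per the labels' protocols. The deposited tables hold raw counts of reads per gene with each gene's exons and summed exon length, per the file headers; no source used here names the aligner, the counter or the strand setting. Symbols came from GENCODE M21 (GRCm38), in which 49056 of 49315 gene IDs were found. Counts were tested with edgeR 4.0.16 in R 4.3.3 (filterByExpr by group, TMM, robust quasi-likelihood fit), the 12 libraries of a sex together and all 24 for differences between the sexes, with Benjamini-Hochberg adjustment over all genes and a threshold of 0.05. This tested 18777 genes in males, 19882 in females and 20222 over both. Errors of log2 fold changes are SE from the fit. The fit was tested on simulated data. DESeq2 1.42.0, other scalings, no filter, a replicate block and fits without libraries were alternatives. The collagen genes, gene lists and tests were chosen with earlier results of these data known. Values in every library are given for the 12 members with the highest mean level, members called in at least 2 comparisons of 2 groups, and the 3 with the smallest adjusted p in each. Col1a1 has no promoter window here.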

Additional observations from a re-analysis of the deposited data

Results flagged for a closer look

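The change under secretin differed between dnTGFB and WT males for 15 members, by an edgeR test of the difference itself (adjusted p under 0.05). It is given as dnTGFB minus WT on the log2 scale. Of 39 members tested 1 was higher and 14 lower, with 8.10% and 7.51% of all genes called. The fibrillar chains were Col5a3 at -3.29, Col1a1 at -2.70, Col3a1 at -2.48, Col1a2 at -2.44 and Col5a1 at -2.14. The basement membrane chains were Col18a1 at -3.15, Col15a1 at -2.84 and Col4a5 at -1.07. Of other classes, Col8a2 was at -3.85, Col12a1 at -3.52, Col6a1 at -3.19, Col24a1 at -3.12, Col6a2 at -2.97, Col23a1 at -1.22 and Col13a1 at 2.04. With 1 male library left out, the calls of Col1a2, Col3a1, Col5a1 and Col18a1 were lost in 10 of 12 fits. That of Col23a1 was lost in 9, those of Col1a1 and Col13a1 in 8 and that of Col24a1 in 2.

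The same difference in females was past the threshold for Col17a1 at 7.35, Col18a1 at 3.19, Col15a1 at -4.96, Col5a3 at -4.64 and Col4a5 at -2.41. Of 41 members tested these are 2 higher and 3 lower, with 4.03% and 13.9% of all genes called. Each of these calls was lost in 10 of the 12 fits without 1 female library, and in those 10 fits no gene at all was called. Without the 4 heart-muscle-rich libraries Col5a3 was at 0.30.

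The sexes, taken from the titles, differed as female minus male in dnTGFB secretin against dnTGFB for Col17a1 at 6.36, Col12a1 at 4.63 and Col18a1 at 3.28. There 5.32% of all genes were called higher and 2.44% lower. In dnTGFB against WT they differed for Col4a4 at 1.23, with 2.42% and 4.45% of all genes called. With 1 of the 24 libraries left out, these calls were lost in 6 fits for Col17a1, 17 for Col12a1, 13 for Col18a1 and 15 for Col4a4.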

How the results depend on the processing

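The number of members called depended on the processing. For male dnTGFB against WT it was 2, and 5 with DESeq2, 7 with library totals, 1 without the low-count filter, 0 with only the 2 groups fitted and 24 without male WT 1 and male dnTGFB 3. All-gene calls were 1606 higher and 1589 lower of 18777, 2561 and 2425 of 18521 with DESeq2, and 1011 and 4212 with library totals. They were 1383 and 1128 of 34198 without the filter, 0 of 16879 with only the 2 groups, and 4279 and 4812 of 19176 without those libraries. For male WT secretin against WT it was 12, and 20, 19 and 28 with DESeq2, only the 2 groups and without those libraries. All genes called were 666 higher and 502 lower of 18777, and 1690 and 1428 of 18521 with DESeq2. They were 2324 and 2604 of 17416 with only the 2 groups, and 3811 and 3956 of 19176 without those libraries. For male dnTGFB secretin against dnTGFB it was 8, and 13 with DESeq2, 16 with library totals, 4 without the filter, 0 with only the 2 groups and 27 without those libraries. Here all-gene calls were 1900 higher and 2337 lower of 18777, 2654 and 3555 of 18521 with DESeq2, and 6689 and 837 with library totals. They were 1492 and 1714 of 34198 without the filter, 299 and 207 of 17461 with only the 2 groups, and 4426 and 4503 of 19176 without those libraries. The male interaction had 15, and 29 without them, where all-gene calls were 1521 higher and 1410 lower of 18777, and 4809 and 4571 of 19176. DESeq2 called 2, 7 and 1 in female dnTGFB against WT, WT secretin against WT and dnTGFB secretin against dnTGFB, against 0 in each. The main fit called 0 of 19882 genes in each of them. For the female interaction all-gene calls were 802 higher and 2772 lower of 19882, 2433 and 3857 of 19604 with DESeq2, and 0 with library totals. The female interaction had 5, and 8 with DESeq2, 0 with library totals, 0 without the 4 heart-muscle-rich libraries and 16 without female WT 2, WT secretin 1 and dnTGFB secretin 1. The sex difference in dnTGFB against WT had 1 member called, and 3 with DESeq2 and 0 with DESeq2 size factors, library totals or no filter. It had 3 without female WT 2, WT secretin 1 and dnTGFB secretin 1. All-gene calls were 489 higher and 899 lower of 20222, and 845 and 1688 of 19340 with DESeq2. They were 288 and 957 with DESeq2 size factors, 203 and 537 with library totals, and 261 and 723 of 37682 without the filter. The sex difference in WT secretin against WT had 0 members called, and 2 with DESeq2. It had 1 without male WT 1 and male dnTGFB 3 and 8 without those 3 female libraries. All-gene calls were 0 of 20222, and 1186 higher and 670 lower of 19340 with DESeq2. For the sex differences, all-gene calls in the fits without those male or those female libraries are not given here. The sex difference in dnTGFB secretin against dnTGFB had 3 members called, and 7 with DESeq2 and 0 with library totals or no filter. All-gene calls were 1075 higher and 493 lower of 20222, and 2106 and 924 of 20125 with DESeq2. They were 0 and 1 with library totals, and 558 and 206 of 37682 without the filter. In alternatives chosen after seeing the data, the sex difference in dnTGFB against WT was 0 without both sets of female libraries and 2 without the heart-rich and both male libraries, where WT secretin against WT had 1.

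Replicate numbers did not pair libraries: 4 of 18 pair correlations in males (-0.22 to 0.27) and 5 of 18 in females (-0.89 to 0.91) were over 0.1. With the replicate block, 1 member was called in male dnTGFB against WT, 4 in dnTGFB secretin against dnTGFB, 11 in WT secretin against WT and 9 in the male interaction. All-gene calls were, in that order, 1188 higher and 1042 lower, 1432 and 1437, 427 and 271, and 1046 and 924 of 18777. The block left 0 members called in the female interaction, where 0 of 19882 genes were called. It also left 0 members in the sex differences in dnTGFB against WT and dnTGFB secretin against dnTGFB. All-gene calls there were 134 higher and 583 lower of 20222 in the first, and 0 of 20222 in the second.

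Signs turned for Col15a1 (0.19), Col1a2 (0.83), Col4a1 (0.84) and Col4a2 (0.87) in male dnTGFB secretin against dnTGFB with library totals, for Col4a1 (0.14) and Col4a2 (0.13) in male dnTGFB against WT without male WT 1 and male dnTGFB 3, and for Col5a3 (0.30) in the female interaction without the heart-rich libraries; the cause was not tested. From summed CPM the fibrillar to basement membrane ratio was 1.32, 1.09, 2.49 and 0.694 in male dnTGFB secretin, dnTGFB, WT secretin and WT, and 0.951 in female dnTGFB. Without Col1a1, Col1a2 and Col3a1 it was 0.143, 0.130, 0.179 and 0.0849 in males and 0.144, 0.125, 0.138 and 0.0954 in females. Without the heart-rich libraries it was 1.23 in female WT secretin.

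With 1 library left out, members called ran from 0 to 18 in male dnTGFB against WT, 4 to 22 in WT secretin against WT, 2 to 17 in dnTGFB secretin against dnTGFB and 7 to 26 in the male interaction. All-gene calls changed too. In male WT secretin against WT they were 221 higher and 111 lower of 19644 without WT secretin 2, and 2832 and 3131 of 19400 without dnTGFB 3. In male dnTGFB against WT they were 697 and 547 of 19501 without WT 3, and 2843 and 3799 of 19400 without dnTGFB 3. Male dnTGFB secretin against dnTGFB had 727 and 321 of 19457 without dnTGFB secretin 1, and 3677 and 3570 of 19400 without dnTGFB 3. The male interaction had 693 and 456, and 3963 and 3361, in the same fits. The members called in females ran from 0 to 0, 0 to 9, 0 to 0 and 0 to 12. Those in the sex differences ran from 0 to 6, 0 to 4 and 0 to 3. Without female WT secretin 1, all-gene calls were 3584 higher and 1857 lower of 21210 in female WT secretin against WT. In that fit the female interaction had 3278 and 4893. The sex difference in WT secretin against WT had 2875 and 1644 of 21312 without that library. The ratio ran from 0.990 to 1.01, 0.789 to 0.911, 1.90 to 1.94 and 0.458 to 0.570 in male dnTGFB secretin, dnTGFB, WT secretin and WT, and from 0.870 to 1.52, 0.690 to 0.789, 0.650 to 0.945 and 0.425 to 0.880 in females. Female WT secretin could not be fitted without both sets of female libraries, since none of its libraries remains, and a fit of only the 2 groups does not apply to interactions.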
